A study of Mus musculus with 6 samples.

Results

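RNA of the glycolytic pathway was compared in RAW264.7 cells with and without GB2, from glucose uptake to lactate export and the control of pyruvate dehydrogenase. RAW264.7 is a mouse macrophage-like line derived from a virus-induced tumour. GB2 is a prodrug in which the STING agonist MSA-2 is coupled to artesunate, used in the study against the receptor TREM2, by a disulfide that glutathione can cleave. The members were the rows of the deposited gene table whose gene name was on a list of 36 genes, and all 36 were found, on 37 of the table rows for 28836 genes. Each group held 3 libraries (untreated replicates 1 to 3 and GB2-treated replicates 1 to 3), and the labels name no other agent or alteration in either group. The labels give neither the dose nor the exposure time, while the study's text states both for its treated macrophages. The study describes macrophages below tumour cells in a transwell co-culture, and whether the untreated cells were kept the same way is not stated outright. The study calls its replicates biological, the labels do not say whether they were separate cultures, and the p-values cover only the spread among the libraries, which may be technical.

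Glycolysis splits glucose into pyruvate in the cytosol. Many steps can be run by several isozymes, which are products of different genes that catalyse one reaction with different affinity or regulation. Hexokinase and phosphofructokinase are the main regulated steps. Pyruvate is then either reduced to lactate and exported or oxidised in mitochondria by the pyruvate dehydrogenase complex, which is switched off by its kinases and on by its phosphatases. In macrophages, inflammatory activation and the hypoxia-inducible factor HIF are known to raise glycolytic genes.

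The libraries held 62660734 to 77337345 estimated counts each. The summed level of 10 macrophage markers was 15297 to 15837 FPKM (fragments per unit of transcript length and of mapped fragments) in untreated and 7605 to 8765 FPKM in treated libraries. Most of this sum was Lyz2, which encodes lysozyme (12760 to 13344 and 6070 to 7062 FPKM). Of the 10 markers 0 were called higher and 2 lower (Cd68 and Csf1r), and by FDR alone 2 were higher and 5 lower. Over all tested genes 13.4% were called higher and 7.73% lower, and 26.8% and 29.6% by FDR alone (rules given below). Adgre1, which encodes F4/80, had 61.3 to 64.6 FPKM untreated and 34.0 to 38.0 treated. GB2-treated replicates 2 and 3 stood apart: the summed level of 10 liver markers was 647 and 620 FPKM there, against 13.1 in treated replicate 1 and 7.54 to 8.50 in the untreated libraries. Of these markers Alb, Apoa1, Tat and Ahsg were listed at 0 in the other 4 libraries, and in replicates 2 and 3 none was. The sums of red cell markers (114 and 115 FPKM against 2.25 to 3.43) and striated muscle markers (147 and 203 against 0.88 to 1.18) parted the same way. Most of the muscle sum in replicates 2 and 3 was Actc1 (85.9 and 115 FPKM) and Myh6 (46.0 and 63.3). Myh4, Tnnt3 and Mylpf stayed at or below 0.70 FPKM there. Members whose level moved with these markers are described together further on, with and without those libraries.

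The member rows took a larger part of the measured RNA after GB2. The 36 members held 1.17 to 1.23% of all FPKM in the untreated libraries and 2.33 to 2.54% in the treated ones, and the groups did not overlap. These percentages leave out the rows of near-identical copies described below. Such rows held 98.75% of the counts of Gapdh and its copies in the untreated and 97.4% in the treated libraries. A gene was called when its false discovery rate (FDR, edgeR quasi-likelihood test, Benjamini-Hochberg over 17124 genes) was below 0.05 and its log2 change at least 1 in either direction. All 36 members were tested: 17 (47.2%) were called higher, against 13.4% of all tested genes, and 3 (8.33%) lower, against 7.73%. The other 16 were not called. By FDR alone, 25 were higher and 6 lower, where 26.8% and 29.6% of all tested genes were. In 29 members the 2 groups did not overlap in FPKM, which held for 61.9% of all tested genes. The median log2 change was 0.77 over the members and 0.01 over all tested genes. In bulk RNA, fewer cells expressing a gene and less RNA per cell cannot be told apart.

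**Figure D1:**
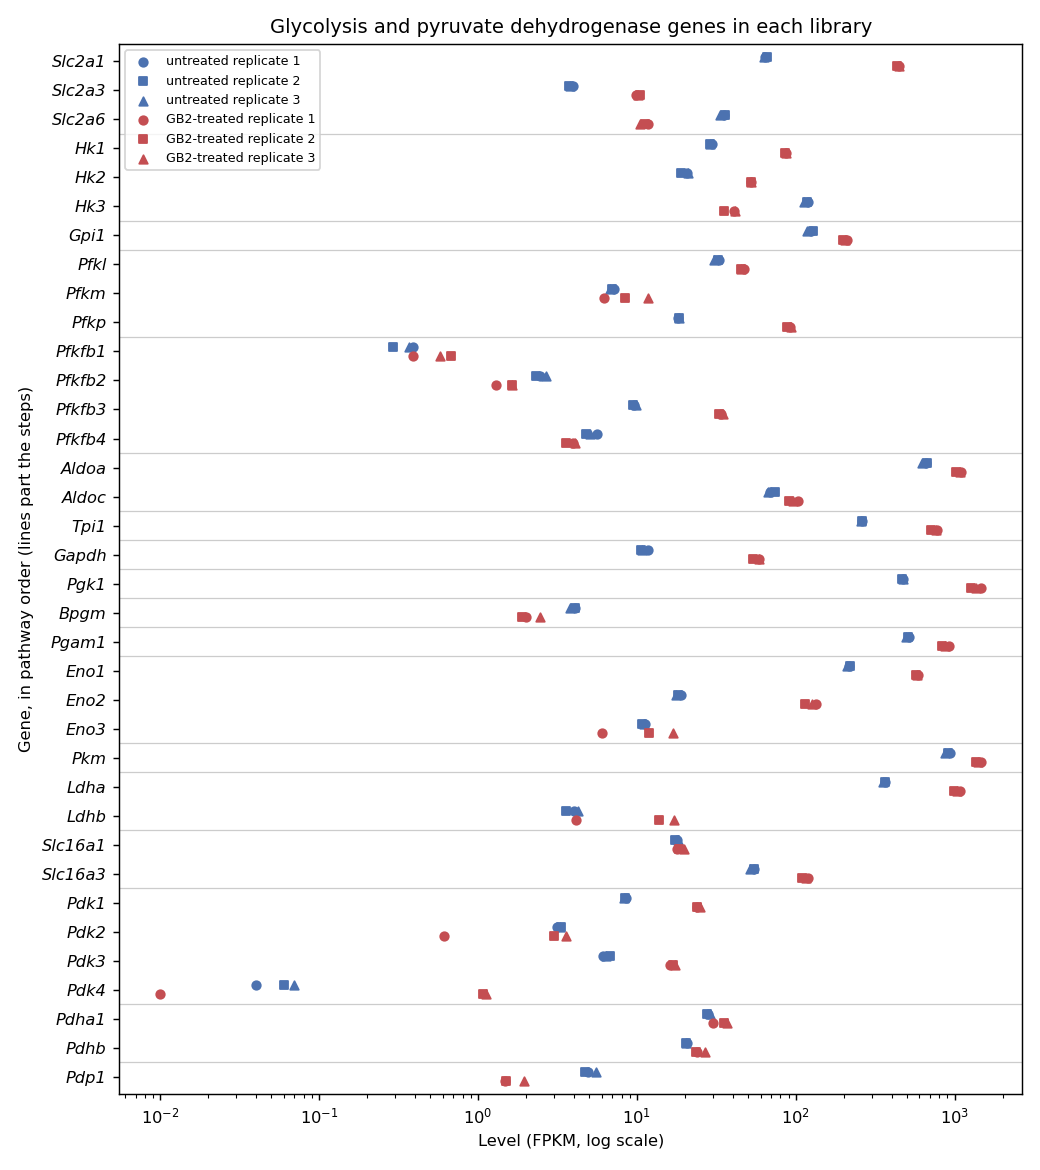
Level of each of the 36 members in each library, in FPKM on a log axis, in pathway order from glucose uptake (top) to pyruvate dehydrogenase phosphatase (bottom). Blue points are untreated and red points GB2-treated libraries, with a marker shape per replicate. Slc2a1 moved from 63.3 to 66.1 up to 433 to 449 FPKM, Hk3 and Slc2a6 moved down, and Pdk2, Ldhb and Pdk4 part between treated replicate 1 and the other two.

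Glucose uptake was carried by Slc2a1 in both groups, and more so after GB2. Slc2a1 (ENSMUSG00000028645, chr4:119108711-119137983 on mm10) encodes the basal glucose transporter GLUT1. Its level was 63.5, 66.1 and 63.3 FPKM in untreated replicates 1 to 3 and 449, 433 and 443 FPKM in treated replicates 1 to 3. Every treated library lay far above every untreated one, and the change was 2.80 ± 0.04 on the log2 scale (SE, 6.94-fold, FDR 2.38e-08). Slc2a3, which encodes the high-affinity transporter GLUT3, had 3.96, 3.75 and 3.80 FPKM untreated and 9.86, 10.5 and 10.2 treated. It rose by 1.43 ± 0.05 (log2, FDR 5.1e-07) and stayed a minor transporter. Slc2a6, which encodes GLUT6, a transporter of intracellular membranes, went the other way, with 35.4, 36.01 and 33.4 FPKM untreated and 11.8, 11.3 and 10.5 treated (log2 change -1.63 ± 0.06, FDR 9.83e-07). Within the summed FPKM of the 3 transporters, the share of Slc2a1 went from 62.4% ± 0.61 to 95.4% ± 0.16 (SD, n = 3), and that of Slc2a6 from 33.9% ± 0.59 to 2.41% ± 0.13. The sum itself was 103 ± 2.67 FPKM untreated and 463 ± 7.97 treated, a 4.49-fold difference of means. For such shares and sums, 3 libraries against 3 allow no two-sided exact permutation p below 0.1, and every share and sum given here reached it except the share of Ldha (exact p = 1).

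The hexokinase step changed in composition with little change in its sum in FPKM. Hexokinases trap glucose in the cell as glucose 6-phosphate. Hk3 (chr13:55005985-55021385), a myeloid isozyme that does not bind mitochondria, led in the untreated libraries at 119, 118 and 113 FPKM and fell to 41.0, 35.4 and 41.4 FPKM (log2 change -1.55 ± 0.06, FDR 8.38e-07). Hk1 (chr10:62268855-62379908), the widespread isozyme bound to mitochondria, had 29.9, 28.9 and 28.9 FPKM untreated and 86.6, 85.1 and 87.3 treated (1.58 ± 0.04, FDR 1.02e-07). Each treated library thus held more Hk1 than Hk3, and each untreated library the reverse. Hk2 (chr6:82725025-82774454), the inducible isozyme, rose from 20.6, 19.1 and 21.0 to 52.4, 51.9 and 52.0 FPKM (1.38 ± 0.05, FDR 4.59e-07). The share of Hk3 went from 70.2% ± 0.88 to 22.1% ± 1.34, that of Hk1 from 17.6% ± 0.18 to 48.6% ± 0.67, and that of Hk2 from 12.2% ± 0.70 to 29.3% ± 0.70 (SD, n = 3). The log2 ratio of Hk3 to Hk1 per library was 1.97 to 2.03 untreated and -1.27 to -1.08 treated. Meanwhile the summed level was 166 ± 3.17 FPKM untreated and 178 ± 4.63 treated, 1.07-fold, with treated libraries at 172 to 181 and untreated ones at 163 to 169. This near-equal sum rests on the length division, over 8532 annotated exonic bases for Hk1, 5969 for Hk2 and 3682 for Hk3. Mean counts went from 19952 to 51187 for Hk1, from 9665 to 21612 for Hk2 and from 34375 to 10067 for Hk3. In counts the gains of Hk1 and Hk2 thus exceeded the fall of Hk3.

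Gpi1, the single gene for phosphoglucose isomerase, had 118 to 127 FPKM untreated and 197 to 210 treated, a log2 change of 0.73 ± 0.05 (FDR 1.16e-05) that stayed under the required size.

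Phosphofructokinase 1 changed its leading isozyme in FPKM, here with a larger sum. In counts, which are not divided by transcript length, Pfkp led in both groups, so this switch rests on the length division. This enzyme commits the sugar to glycolysis and is a tetramer of liver (Pfkl), muscle (Pfkm) and platelet (Pfkp) subunits. Pfkl (chr10:77986947-78009807) led before treatment at 32.7, 32.2 and 30.6 FPKM and reached 47.5, 44.9 and 45.5 FPKM. Its log2 change of 0.55 ± 0.05 (FDR 4.32e-05) stayed under the required size and was not called. Pfkp (chr13:6579768-6648777) went from 18.1, 18.4 and 18.4 to 91.5, 88.5 and 92.8 FPKM (2.33 ± 0.03, 5.03-fold, FDR 2.38e-08). In FPKM, Pfkl was above Pfkp in all 3 untreated libraries and below it in all 3 treated ones. The estimated counts of the untreated libraries were 16889, 17438 and 16668 for Pfkl and 18789, 19993 and 20081 for Pfkp, over 6675 and 13401 annotated exonic bases. The share of Pfkp went from 32.1% ± 0.87 to 62.4% ± 0.58, and that of Pfkl from 55.8% ± 0.74 to 31.6% ± 1.20 (SD, n = 3). The sum of the 3 subunits was 57.0 ± 1.17 FPKM untreated and 146 ± 4.10 treated (2.55-fold).

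The bifunctional enzymes that make and break the activator of phosphofructokinase 1 were led by Pfkfb3 in both groups. Pfkfb3, the inducible form with predominant kinase activity, had 9.54, 9.45 and 9.84 FPKM untreated and 33.8, 32.7 and 34.7 treated (1.83 ± 0.03, FDR 4.78e-08). Its share of the summed FPKM of the 4 Pfkfb genes went from 54.8% ± 1.55 to 85.0% ± 0.54, while Pfkfb4 went from 29.1% to 9.73% and Pfkfb2 from 14.1% to 3.84%. Pfkfb2 (-0.68 ± 0.11, FDR 0.0017) and Pfkfb4 (-0.39 ± 0.08, FDR 0.0045) lay lower in every treated library. Both stayed under the required size and were not called.

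**Figure D2:**
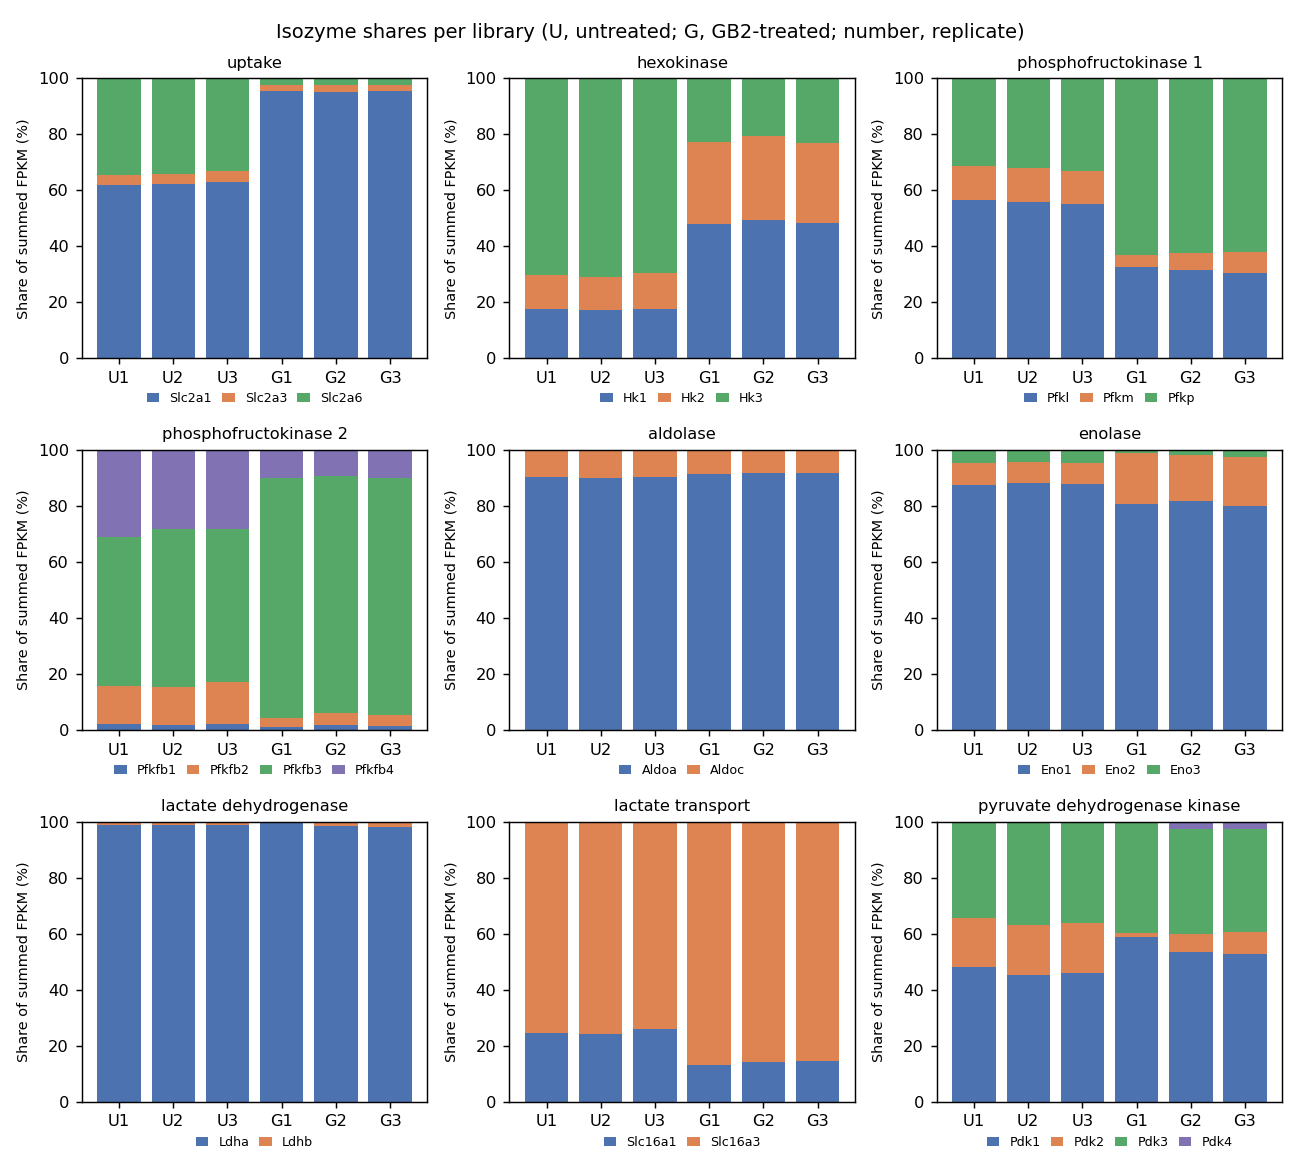
Share of each isozyme in the summed FPKM of its step (percent), one stacked bar per library, for the 9 steps with several isozymes. U1 to U3 are the untreated and G1 to G3 the GB2-treated replicates. In these per-length shares the largest segment changes gene at hexokinase (Hk3 at 70.2%, then Hk1 at 48.6%) and at phosphofructokinase 1 (Pfkl at 55.8%, then Pfkp at 62.4%).

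The lower part of the pathway kept its leading genes, and their changes were of unequal size. Tpi1, which interconverts the triose phosphates, had 262, 262 and 256 FPKM untreated and 770, 706 and 761 treated (1.54 ± 0.04, FDR 1.8e-07). Pgk1 (chrX:106187100-106203699), which makes the first ATP of the pathway, had 471, 465 and 473 FPKM untreated and 1468, 1262 and 1358 treated (1.55 ± 0.06, FDR 6.2e-07). Both groups were far apart for each gene. Aldoa, the leading aldolase, had 655, 671 and 622 FPKM untreated and 1088, 1026 and 1071 treated (0.73 ± 0.05), and held 90.3% of the aldolase sum before and 91.7% after GB2. Aldoc, the brain-type aldolase, went from 66.9 to 74.3 up to 90.2 to 103 FPKM (0.48 ± 0.06). Pgam1, the phosphoglycerate mutase, went from 495 to 514 up to 837 to 920 FPKM (0.80 ± 0.05). Aldoa, Aldoc and Pgam1 passed the FDR but not the required size. Bpgm, which makes bisphosphoglycerate as a side branch known from red cells, had 3.79 to 4.10 FPKM untreated and 1.9 to 2.47 treated (-0.89 ± 0.11, FDR 0.00039, under the required size).

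Gapdh, which oxidises glyceraldehyde 3-phosphate, was called higher, but its row holds a small part of the reads that could belong to it. It had 11.7, 10.5 and 10.7 FPKM untreated and 58.6, 53.5 and 58.8 treated (2.39 ± 0.06, FDR 1.05e-07), which is low beside Tpi1 and Pgk1. The annotation holds 105 near-identical copies of Gapdh (mostly pseudogenes, matched over at least 25% of their length by exact stretches of 50 bases), 98 of them with a row in the table. Those rows held 98.75% of the counts summed over Gapdh and its copies in the untreated and 97.4% in the treated libraries. With their counts added to Gapdh, an alternative chosen after seeing the data, the log2 change was 1.36 (FDR 7.6e-07), so that the direction and the call were kept and the size was not. Copies of Eno1 held 41.9% and 40.9% of such a sum, and those of every other member at most 5.66%. The second, minor row named Aldoa rose from 0.62 to 1.30 up to 2.48 to 4.50 FPKM (1.82 ± 0.35, FDR 0.0035).

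Enolase was led by Eno1 throughout, with a growing part for Eno2. Eno1 (chr4:150236721-150248879), the ubiquitous isozyme, had 216, 219 and 209 FPKM untreated and 587, 571 and 575 treated (1.44 ± 0.04, FDR 2.2e-07). Eno2, the isozyme named for neurons, had 18.9, 18.1 and 17.7 FPKM untreated and 134, 114 and 126 treated (2.78 ± 0.06, 6.89-fold, FDR 9.87e-08). The groups were far apart for both genes. The share of Eno2 went from 7.48% ± 0.18 to 17.4% ± 1.04 and that of Eno1 from 88.0% ± 0.30 to 80.9% ± 0.92 (SD, n = 3); with the copies of Eno1 added, the share of Eno1 differed by -2.74 instead of -7.05 percentage points.

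Pkm, the pyruvate kinase gene expressed in macrophages, had 935, 907 and 871 FPKM untreated and 1471, 1357 and 1406 treated, a log2 change of 0.66 ± 0.05 (FDR 1.76e-05) that was not called. It had the highest mean FPKM of the 36 member rows in both groups, where Gapdh stands without its copies. The copies of Gapdh had mean counts of 286316 untreated and 622128 treated, against 361766 and 491427 for Pkm. These counts are not divided by length. Pkm has 5001 annotated exonic bases, and Gm13394, the Gapdh copy with the most counts, has 1000. With copies added, the rank of Pkm per length was not determined in either group. The M1 and M2 forms of Pkm come from alternative exons of this gene and were not resolved by a table of genes. The step sums of phosphoglucose isomerase, aldolase, phosphoglycerate mutase and pyruvate kinase were 1.56 to 1.72-fold higher, and those of triose phosphate isomerase, phosphoglycerate kinase, enolase and lactate dehydrogenase 2.85 to 2.92-fold. Outside these ranges lay uptake (4.49-fold), the Gapdh row (5.19-fold), lactate transport (1.87-fold) and Bpgm (0.53 of the untreated level), besides the other steps given in their own paragraphs.

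**Figure D3:**
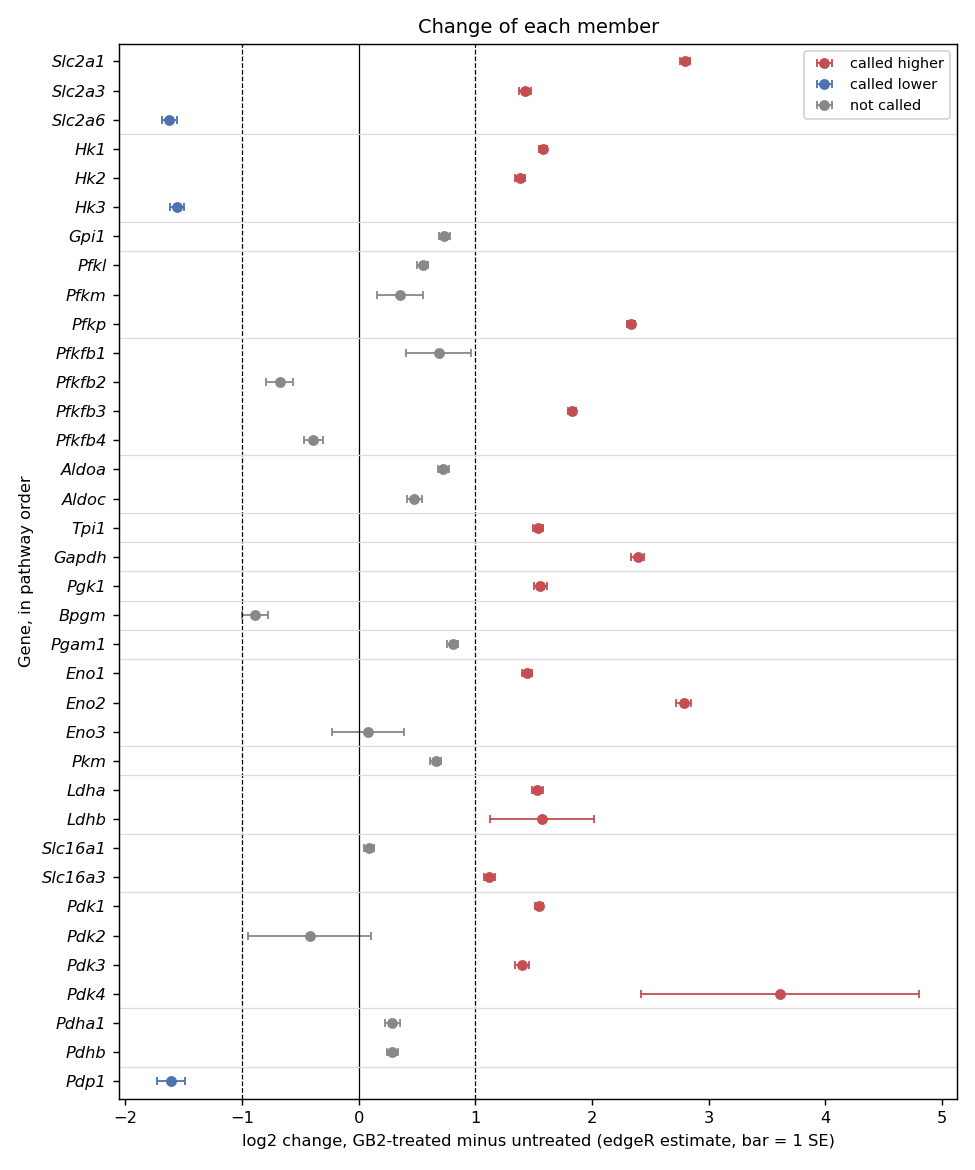
The log2 change of each member (edgeR estimate, bars of 1 SE, GB2-treated minus untreated), in pathway order, with dashed lines at the required size of 1. Red points are called higher (17 genes), blue ones lower (Slc2a6, Hk3 and Pdp1) and grey ones not called, and the widest bars belong to Pdk4, Pdk2, Ldhb and Eno3.

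The leading genes of lactate formation and export rose. Ldha (chr7:46841475-46855627), the subunit that favours lactate formation, had 366, 367 and 354 FPKM untreated and 1082, 986 and 1031 treated (1.53 ± 0.05, FDR 2.9e-07), and held 98.9% of the Ldha and Ldhb sum in both groups. Slc16a3, which encodes the lactate exporter MCT4, had 54.3, 54.5 and 51.4 FPKM untreated and 119, 110 and 115 treated (1.12 ± 0.05, FDR 1.2e-06). Slc16a1, which encodes MCT1, had 17.4 to 18.2 FPKM untreated and 17.8 to 19.9 treated (0.09 ± 0.04, FDR 0.12), with overlapping groups. The share of Slc16a3 in the sum of both carriers went from 75.0% ± 1.00 to 86.0% ± 0.87 (SD, n = 3).

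At pyruvate dehydrogenase, RNA of the 2 leading kinases rose and that of the phosphatase Pdp1 fell, with a smaller difference at the enzyme itself. Pdk1, a kinase that inactivates the complex and a known HIF target, had 8.59, 8.43 and 8.31 FPKM untreated and 24.0, 24.0 and 24.9 treated (1.54 ± 0.04, FDR 9.84e-08). Pdk3, another kinase of the family, had 6.12, 6.81 and 6.42 FPKM untreated and 16.2, 16.8 and 17.4 treated (1.40 ± 0.06, FDR 1.23e-06). Pdp1 (chr4:11958184-11966452), a phosphatase that reactivates the complex, had 4.93, 4.71 and 5.49 FPKM untreated and 1.47, 1.49 and 1.94 treated (-1.61 ± 0.12, FDR 2.17e-05). Pdp2, a second such phosphatase outside the member list, was picked after its values were seen. It had 2.70, 2.74 and 2.53 FPKM untreated and 1.58, 1.88 and 1.75 treated (-0.60 ± 0.10, FDR 0.0016, not called). Mean FPKM was thus higher for Pdp1 untreated (5.04 against 2.66), and near equal treated (1.63 against 1.74). In none of these genes did the groups overlap. Pdk1 led the kinases in both groups, with 46.4% ± 1.44 and 55.1% ± 3.23 of their sum (SD, n = 3), and Pdk3 held 35.4% and 38.1%. The E1 subunits Pdha1 (27.7 to 28.9 FPKM untreated, 30.3 to 36.8 treated) and Pdhb (20.2 to 20.7 and 23.4 to 26.7) had log2 changes of 0.29 each. Both passed the FDR (0.0080 and 0.0011) but not the required size.

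The remaining members parted between treated replicate 1 and treated replicates 2 and 3. In 6 of the 36 members the mean of replicates 2 and 3 differed from replicate 1 by at least 0.5 on the log2 scale, as it did in 23.6% of all tested genes. Ldhb, the heart-type subunit of lactate dehydrogenase, had 4.02, 3.58 and 4.25 FPKM untreated and 4.15, 13.7 and 17.1 treated. Treated replicate 1 lay within the untreated range, and the call (1.57 ± 0.45, FDR 0.0195) was lost without replicates 2 and 3 (0.15, FDR 0.48). Pdk4, a kinase induced by fasting and fatty acids, had 0.04, 0.06 and 0.07 FPKM untreated (13 to 20 counts) and 0.01, 1.07 and 1.12 treated (4, 252 and 259 counts). Its call (3.61 ± 1.19, FDR 0.0344) turned to -1.89 (FDR 0.23) without replicates 2 and 3. Pdk2, the widely expressed kinase, had 3.13, 3.32 and 3.27 FPKM untreated and 0.61, 3.00 and 3.58 treated. It was not called over all libraries (-0.42 ± 0.53), and was called lower with treated replicate 1 as the only treated library (-2.30, FDR 1.42e-05), where that single library is assumed to vary like the others.

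Eno3, the muscle enolase, had 11.3, 10.8 and 11.01 FPKM untreated and 6.07, 11.9 and 16.8 treated. Pfkm had 7.17, 6.93 and 6.73 FPKM untreated and 6.22, 8.40 and 11.8 treated. Neither was called, and in both the treated libraries lay on either side of the untreated ones. Pfkfb1, the liver and muscle form of its family, had 0.29 to 0.39 FPKM untreated and 0.39, 0.68 and 0.58 treated (0.68 ± 0.28, FDR 0.071). In all 6, treated replicates 2 and 3 were higher than replicate 1, as were the liver, red cell, muscle and epithelial markers given above or plotted; the part of such RNA in these values was not tested. Without replicates 2 and 3 the members counted 15 higher and 4 lower, where 7.85% and 7.89% of all tested genes were, and the leaders in FPKM at hexokinase and phosphofructokinase 1 still differed between the groups.

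**Figure D4:**
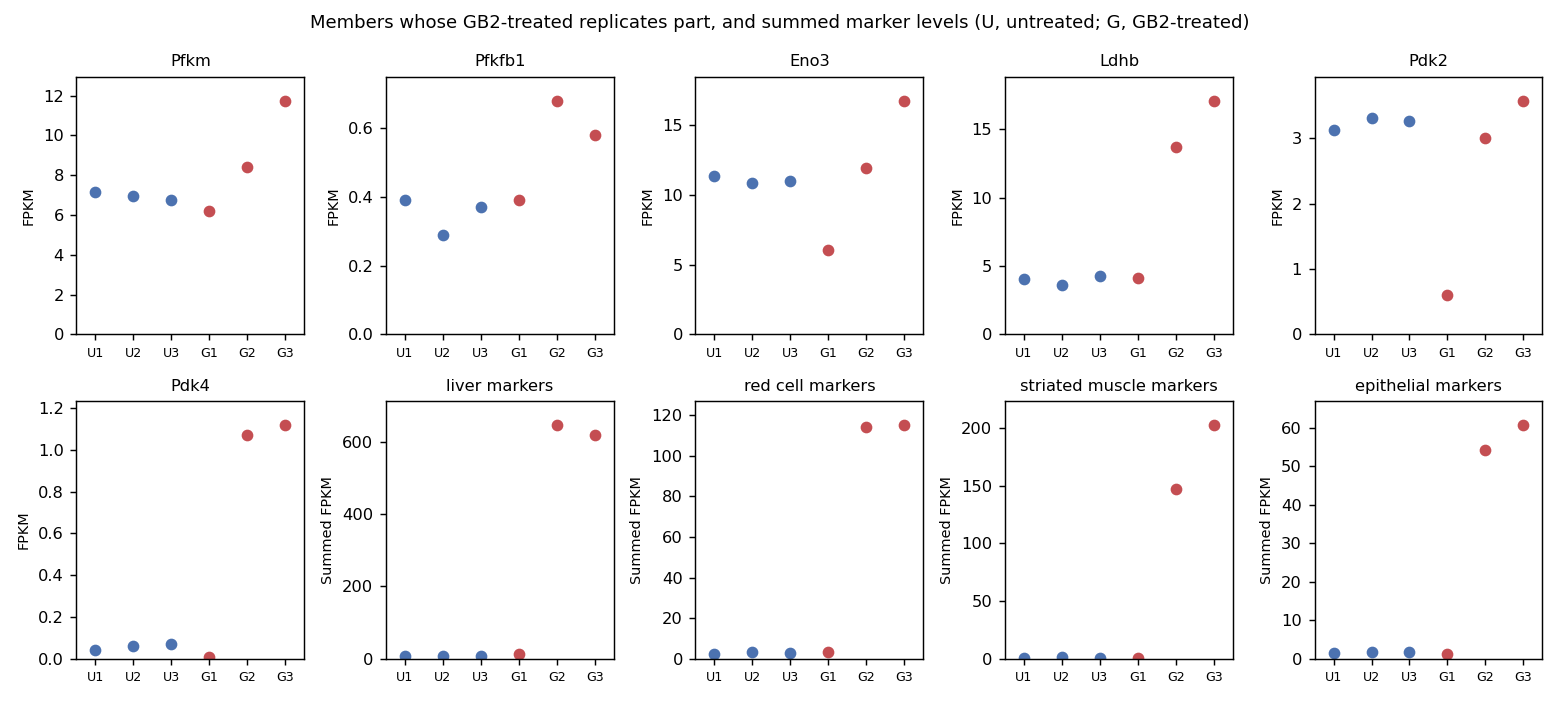
FPKM of the 6 members whose treated replicates part, and the summed FPKM of 4 marker lists, in each library (blue U1 to U3, untreated; red G1 to G3, GB2-treated; linear axes from 0). G2 and G3 are above G1 in all 10 panels, as in Ldhb (4.15 against 13.7 and 17.1 FPKM) and the liver markers (13.1 against 647 and 620).

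Promoter sequence is shown for the leading transporter, the leaders in FPKM before and after GB2 at hexokinase and phosphofructokinase 1, and Ldha. HIF binds a core written ACGTG or GCGTG, and these letters were searched on both strands in the 250 bases before each RefSeq start (GRCm38.p6); a palindrome CACGTG holds the first of them on both strands. Capitals mark the matches, which read CACGT or CACGC where the motif lies on the other strand. Slc2a1 at chr4:119108495-119108744 (plus strand) had 2 matches. Hk1 has 2 windows, and the one at chr10:62340422-62340671 (minus strand) had 3 while the other had 0. Hk3 at chr13:55021386-55021635 (minus) and Pfkl at chr10:78009808-78010057 (minus) had 1 each, and Pfkp at chr13:6648772-6649021 (minus) had 3. Ldha also has 2 windows, of which the one at chr7:46845554-46845803 (plus), with 5 matches, is shown.
Slc2a1: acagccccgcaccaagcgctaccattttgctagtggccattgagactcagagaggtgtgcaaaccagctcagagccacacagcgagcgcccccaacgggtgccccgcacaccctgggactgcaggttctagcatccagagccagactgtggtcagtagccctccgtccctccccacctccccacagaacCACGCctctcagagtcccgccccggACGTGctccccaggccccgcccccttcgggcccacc
Hk1: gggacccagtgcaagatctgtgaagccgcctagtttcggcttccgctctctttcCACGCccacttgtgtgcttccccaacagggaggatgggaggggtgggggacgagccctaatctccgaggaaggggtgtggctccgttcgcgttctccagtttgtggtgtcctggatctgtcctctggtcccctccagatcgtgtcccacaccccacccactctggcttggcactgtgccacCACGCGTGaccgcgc
Hk3: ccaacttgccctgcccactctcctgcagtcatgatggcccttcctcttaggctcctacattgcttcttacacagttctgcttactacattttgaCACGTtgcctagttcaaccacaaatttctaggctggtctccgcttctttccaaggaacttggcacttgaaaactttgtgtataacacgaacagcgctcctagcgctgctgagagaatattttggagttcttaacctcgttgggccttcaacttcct
Pfkl: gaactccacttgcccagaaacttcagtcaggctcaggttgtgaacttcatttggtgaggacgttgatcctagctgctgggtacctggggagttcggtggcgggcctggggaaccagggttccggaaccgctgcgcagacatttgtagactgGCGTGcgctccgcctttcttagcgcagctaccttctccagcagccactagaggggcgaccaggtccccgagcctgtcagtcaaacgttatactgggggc
Pfkp: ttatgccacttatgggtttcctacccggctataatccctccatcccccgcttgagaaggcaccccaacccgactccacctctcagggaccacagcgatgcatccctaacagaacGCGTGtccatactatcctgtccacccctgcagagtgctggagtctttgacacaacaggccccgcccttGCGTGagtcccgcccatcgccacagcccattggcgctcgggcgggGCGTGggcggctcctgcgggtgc
Ldha: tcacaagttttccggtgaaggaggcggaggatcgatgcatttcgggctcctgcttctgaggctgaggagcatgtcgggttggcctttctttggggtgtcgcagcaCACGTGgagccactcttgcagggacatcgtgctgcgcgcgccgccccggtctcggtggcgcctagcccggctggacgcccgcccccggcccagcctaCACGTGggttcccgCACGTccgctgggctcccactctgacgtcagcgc

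Of the members, 34 matched the promoter table by symbol (all but Slc2a3 and Pdp1), with 53 windows. Either motif was present in 75.5% of these windows, against 38.6% of all 32851 promoter windows; ACGTG alone was in 37.7% against 16.6%, and GCGTG in 52.8% against 28.2%. Among windows of members called higher, 18 of 22 held a match, among those not called 20 of 29, and among those of the lower genes Hk3 and Slc2a6 2 of 2. Pfkl and Hk3, which led only in the untreated libraries, held a match as well. Windows of a gene can overlap and share a match, as in Eno1, Aldoa and Pfkm, and each was counted. The full set of promoter windows was not matched to those of the members for base composition. The difference in shares was not tested. A match is a description of the letters and no evidence of binding.

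Genes near these steps were listed too. Of 23 other glycolysis genes tested, 6 were called higher and 2 lower, where edgeR called 13.4% of all tested genes higher and 7.73% lower. DESeq2 called 8 higher and 2 lower of 27, and limma on log2(FPKM + 1) 3 higher and 1 lower of 14. Large changes were those of Pklr, the liver and red cell pyruvate kinase (0.05 to 0.12 FPKM untreated, 0.04, 3.07 and 3.38 treated, 4.77 ± 1.30, FDR 0.0165), and Slc16a8, which encodes the carrier MCT3 (0.22 to 0.24 and 0.00 to 0.02 FPKM, -4.13 ± 0.61, FDR 0.00088). Pklr was high only in treated replicates 2 and 3, and without these its log2 change was -0.74. That of Slc2a2, also called higher, was 0.60 without them and 2.09 over all libraries. For Hkdc1, called higher as well, it was 1.14 and 2.56, with 0.07, 0.45 and 0.10 FPKM in treated replicates 1 to 3. The next 3 genes moved in all treated libraries and were picked after their values were seen. Bsg, which encodes the chaperone of the lactate carriers, had 121 to 130 FPKM untreated and 441 to 493 treated (1.93 ± 0.05, FDR 1.9e-07). Pgm1, the phosphoglucomutase at the branch to glycogen, had 27.4 to 28.6 and 95.8 to 101 FPKM (1.84 ± 0.04, FDR 9.2e-08). Tigar, a phosphatase that lowers the activator of phosphofructokinase 1, had 10.4 to 11.9 and 4.34 to 5.01 FPKM (-1.23 ± 0.08, FDR 1.2e-05).

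Of 10 genes for mitochondrial pyruvate entry and the rest of the dehydrogenase complex, edgeR called 0 higher (DESeq2 and limma also 0) and 1 lower. Over all tested genes it called 13.4% higher and 7.73% lower. By FDR alone 3 of the 10 were higher and 3 lower, where 26.8% and 29.6% of all tested genes were. The gene called lower was Lipt1, which transfers lipoate to the complexes, with 1.67 to 1.98 FPKM untreated and 0.79 to 0.81 treated (-1.16 ± 0.18, FDR 0.00097). The median log2 change of the 10 was 0.16.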

How the data were processed

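RNA-seq of 3 untreated and 3 GB2-treated libraries was analysed. Poly(A) RNA was made into dUTP-marked, stranded libraries. The submitters' notes name cutadapt 1.9, HISAT2 2.2.1, StringTie 2.1.6 and mm10. Annotation release, strand setting and counting were not given in those sources. The authors deposited estimated counts per gene (already whole numbers) and FPKM values, which relate fragments to gene length and library total. Counts that are multiples of 4 were in excess at low values (952 genes at 4, 397 at 3 and 252 at 5 in untreated replicate 1), and the cause is not known.

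The test on counts was the quasi-likelihood F test of edgeR 4.0.16 under R 4.3.3 (TMM scaling, default expression filter, no covariate). Levels, isozyme shares and step sums used FPKM, because counts of different genes also depend on length. The length behind the deposited FPKM was not given. All annotated exons of a gene together can be longer than any single transcript, so FPKM may understate genes with many annotated exons. The shares are therefore not levels per transcript. A step's leader is the gene with the highest mean FPKM. Shares and sums were compared by a two-sided exact permutation test. Totals were 62660734 to 77337345 counts per library, and differences smaller than the replicate spread were not resolved. The members, pathway lists and marker lists were chosen with earlier results of these data known, so no list was tested as a set. Every called member was given in full, and every leader by its level and change. Of each further list, up to 3 called genes with the largest change were named, or the 2 most abundant where none was called. A gene that this rule picks is not reported here.

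Near-identical copies were found by exact 50-base matches to GENCODE M21 transcripts. Exons of Gpi1, Pfkm, Pfkp, Pfkfb2, Pkm and Pdha1 overlap another gene by 5.6 to 17.4% of their bases, those of Gpi1, Pfkp and Pdha1 on the other strand. Alternatives used DESeq2 1.42.0, limma 3.58.1 on log2(FPKM + 1) and log2(FPKM + 0.1) for genes averaging 1 FPKM or more, or for all, no expression filter, each library left out, treated replicates 2 and 3 left out, a replicate block, counts divided by 4 and, chosen after seeing the data, copies added to their member. The edgeR test was tried on simulated counts.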

Additional observations from a re-analysis of the deposited data

How the results depend on the processing

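Across the 16 alternatives 15 to 17 members were called higher and 3 or 4 lower, where 2.18 to 19.9% of all tested genes were higher and 2.23 to 8.42% lower, and 15 of the 17 higher and all 3 lower calls held in each. The exceptions were Ldhb and Pdk4. Ldhb lost its call without any 1 untreated library (FDR 0.087 to 0.0999), without treated replicate 3 (0.058), without treated replicates 2 and 3 and under limma on log2(FPKM + 1) (FDR 0.054 with and 0.12 without a level filter). Pdk4 lost it without any 1 library other than treated replicate 1 (FDR 0.08 to 0.14), without an expression filter (0.076) and under limma with no level filter (0.16), and its log2 change turned to -1.89 without treated replicates 2 and 3. Pdk4 could not be tested in limma with the level filter or on counts divided by 4. Pdk2 was called only without treated replicates 2 and 3. In leaving out 1 library at a time, 2 steps switched leader each time, the share of Hk3 differed by -48.6 to -47.4 percentage points (-48.2 over all libraries) and that of Pfkl by -24.8 to -23.6 (-24.2). Without treated replicates 2 and 3 the share of Pfkl differed by -23.1 points. In shares of counts, which favour long genes, that of Hk3 differed by -41.6 points and 1 step switched leader, hexokinase, since Pfkp then led in both groups.

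With the replicate number as a block, 16 members were higher and 3 lower (Pdk4 lost, FDR 0.14). Same-numbered libraries deviated together weakly (correlations 0.04, 0.12 and 0.10), each correlated best with its own number, and the labels name nothing shared. Over all genes, the counts of 2300 higher and 1324 lower moved by more than 1.5 times under limma on log2(FPKM + 1) (603 and 611), log2(FPKM + 0.1) (860 higher) and no level filter (598 and 614), without untreated replicates 1 or 2 (1519 and 1486 higher) or treated replicate 1 (3728 higher), and without treated replicates 2 and 3 (1432 higher). The median log2 change of all genes was 0.24 under DESeq2 and -0.10 and -0.12 under limma with the level filter, over other sets of genes. Depth limits mainly Pdk4, at 4 to 20 counts in 4 libraries, and Pfkfb1.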

Other observations

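The pentose phosphate pathway branches off glycolysis at glucose 6-phosphate. Of its 12 genes 0 were called by edgeR, DESeq2 or limma, where edgeR called 13.4% of all tested genes higher and 7.73% lower. By FDR alone 1 was higher and 7 were lower, where 26.8% and 29.6% of all tested genes were. The median log2 change of the 12 was -0.42. The difference from the glycolysis genes was not tested. Taldo1, the transaldolase, had 110 to 113 FPKM untreated and 68.3 to 73.6 treated (-0.62 ± 0.04, edgeR FDR 9.6e-06). G6pdx, which encodes the entry enzyme, had 73.7 to 75.2 and 64.9 to 71.6 FPKM (-0.12 ± 0.05, FDR 0.07).

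Of 12 genes of gluconeogenesis and the glycerol branch, 6 were called higher and 1 lower, where edgeR called 13.4% of all tested genes higher and 7.73% lower. DESeq2 called 5 higher and 1 lower of 12, and limma on log2(FPKM + 1) 2 higher and 1 lower of 11. Fbp2 (4.56 ± 1.48, FDR 0.033), Fbp1 (2.04 ± 0.55, FDR 0.015) and G6pc (1.98 ± 0.53, FDR 0.015), which encode enzymes of glucose formation, were each highest in treated replicates 2 and 3: Fbp1 had 2.06 to 2.21 FPKM untreated and 2.31, 12.7 and 11.1 treated. Without these libraries the log2 changes of Fbp2, Fbp1 and G6pc were 1.75, 0.20 and 0.51. Those of Pck1 and Gpd1, also called higher, were 0.09 and 0.34 without them and 1.84 and 1.88 over all libraries. Liver markers were high in replicates 2 and 3 as well, and their part was not tested. Slc37a4, the glucose 6-phosphate carrier of the endoplasmic reticulum, moved in all treated libraries (7.18 to 7.35 and 16.5 to 17.8 FPKM, 1.25 ± 0.04, FDR 4.6e-07). Gpd1l, a glycerol 3-phosphate dehydrogenase, fell from 16.7 to 17.4 down to 5.89 to 6.31 FPKM (-1.48 ± 0.05, FDR 4.4e-07). Both were picked after their values were seen.

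Among 13 regulators of glycolytic genes, 7 were called higher and 0 lower by edgeR and DESeq2 (limma on log2(FPKM + 1): 3 higher, 0 lower of 10). Over all tested genes edgeR called 13.4% higher and 7.73% lower. By FDR alone 8 of the 13 were higher and 3 lower, where 26.8% and 29.6% of all tested genes were. Without treated replicates 2 and 3 the log2 changes of the called genes Epas1, Arrdc4 and Mlxipl were -0.38, -0.22 and 0.74. Egln3, a prolyl hydroxylase that marks HIF for degradation and is itself a known HIF target, had 2.1 to 2.40 FPKM untreated and 30.4 to 32.5 treated (3.84 ± 0.06, FDR 3.7e-08). Myc, a transcription factor that binds glycolytic genes, had 1.15 to 1.41 and 14.2 to 15.3 FPKM (3.52 ± 0.09, FDR 1.8e-07). Epas1, which encodes a HIF subunit, had 0.06 to 0.15 FPKM untreated and 0.08, 1.17 and 1.65 treated (3.18 ± 0.96, FDR 0.024), with treated replicate 1 inside the untreated range. Hif1a, the main HIF subunit in macrophages and picked after its values were seen, had 21.9 to 24.7 and 35.4 to 35.8 FPKM (0.64 ± 0.05, FDR 2.6e-05) and was not called. Txnip, which restrains glucose uptake and was also picked afterwards, had 523 to 536 and 341 to 356 FPKM (-0.58 ± 0.03, FDR 6.7e-06, not called). Egln1 (1.99 ± 0.06, FDR 2.4e-07) and Vhl (1.05 ± 0.04, FDR 7.7e-07) were called higher as well, and Arnt was not called (-0.01 ± 0.03).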
